A study of Mus musculus with 10 samples.

Results

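The genes of the desmosome were followed across 5 mouse mammary tumour cell lines. The set holds 8 genes, namely the desmosomal cadherins Dsg2 and Dsc2, the plakin Dsp, the armadillo proteins Jup, Pkp1, Pkp2 and Pkp3, and the tetraspan membrane protein Perp. They were chosen by name, as parts of the junction, with earlier results of these data known. Every probe set whose single gene symbol was one of these names was taken. These were 20 of the 45101 probe sets of the array and 8 of its 18193 genes with a probe set of a single symbol. All 8 genes and 19 of the 20 probe sets passed the filter on low signals, and 14840 genes were tested in all. Dsp, Dsg2 and Dsc2 passed the filter only through the arrays of the epithelial line, where they were high.

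The mesenchymal lines, named M1 to M4, were each grown from a tumour that relapsed in a female FVB/N mouse after E cells had been injected. The epithelial line, E, was grown from a mammary adenocarcinoma of a female mouse of the strain FVB/N-TgN(MMTVneu)202Mul, in which a mammary tumour virus promoter drives the neu oncogene in the mammary epithelium. By their labels the M lines descend from E cells, whose genome carries this transgene. All lines were cultured in RPMI with 10% fetal bovine serum to 80% confluence, and each was measured on 2 arrays. The labels do not give the mice's ages or say whether the 2 arrays of a line were separate cultures. Except in the fit to line means, p-values therefore reflect how far 2 arrays of the same line differ, which may be technical variation.

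The desmosome is a spot-like junction that anchors the keratin filaments of one epithelial cell to those of its neighbour. Its cadherins, the desmogleins and desmocollins, span the cell membrane and bind those of the neighbouring cell. Inside, plakoglobin and the plakophilins bind the cadherin tails and hold desmoplakin, which ties the plaque to keratin. In the mammary gland desmosomes join luminal cells to one another and to the myoepithelial layer.

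The RefSeq promoter table of build GRCm38.p6 held 2 of the 8 genes, Dsp and Jup, and their sequences are shown because these genes carry the plaque's link to keratin and to the cadherins. The Dsp stretch is chr13:38151044-38151293 on the plus strand, the 250 bases before the start of the gene. The Jup stretch is chr11:100397841-100398040 on the minus strand, the 200 bases that run from 250 to 51 bases before its start. Capitals mark the GC box GGGCGG on either strand.
Dsp promoter: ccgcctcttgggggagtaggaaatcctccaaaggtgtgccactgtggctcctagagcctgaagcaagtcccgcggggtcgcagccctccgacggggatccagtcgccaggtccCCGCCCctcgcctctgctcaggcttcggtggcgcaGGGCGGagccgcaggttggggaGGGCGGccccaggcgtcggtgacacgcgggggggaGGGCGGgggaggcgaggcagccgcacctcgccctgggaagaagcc
Jup promoter: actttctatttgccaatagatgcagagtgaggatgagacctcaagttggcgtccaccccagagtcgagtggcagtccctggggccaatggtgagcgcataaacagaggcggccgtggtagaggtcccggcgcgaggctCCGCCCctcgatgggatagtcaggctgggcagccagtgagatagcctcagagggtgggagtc
The Dsp stretch held 4 GC boxes, which begin 137, 102, 80 and 45 bases before the start, and the Jup stretch held 1, at 112 bases. A GC box stood in 32.7% of all 32851 promoters of the table over the same 250 bases and in 24.6% over the same 200 bases. The E-box CACCTG, the element to which ZEB and SNAIL factors bind, and the Grainyhead element AACCNGGTT were searched on both strands and matched neither stretch. In the 50 bases after the Dsp start, which are not printed, the E-box matched once, as it did in 3.4% of all promoters. The E-box stood in 17.2% of all promoters over 250 bases and in 14.4% over 200 bases, and the Grainyhead element in 0.24% and 0.186%. No match overlapped one of another motif, and a match or its absence describes only the letters of these windows.

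Signals are probe set intensities on the linear scale of the deposited table. Arrays of 1 line correlated at 0.992 to 0.993 and arrays of different lines at 0.873 to 0.976 across probe sets, and the arrays' trimmed mean signal ran from 180.7 to 299. The line labels were checked against marker genes. All 5 tested epithelial markers of 6 fell in the mean of the M lines, and their summed signal was 628.3 to 8807 on M arrays, against 34610 to 37400 on E arrays. Epcam was at 1.7 to 4.5 on M arrays and at 10046 to 10675 on E arrays. Krt8, 1 of the 5, fell in M1 and was not called in M2, M3 or M4. It averaged 7947 in M2, 5529 in M3 and 4538 in M4, against 7959 in E. Of 6 fibroblast markers 4 of the 5 tested rose, with sums of 5438 to 13470 on M arrays, against 68.1 to 108.9 on E arrays, while Thy1 was not called and Fap did not pass the filter. Lum, 1 of the 4, rose in M4 and was not called in M1, M2 or M3. Averaged over the M lines, no tested leukocyte (7 of 8), keratinocyte (4 of 6) or endothelial marker (2 of 3) was called. In single lines Krt10 rose in M1 (1.03), Krt14 (1.65) and Cdh5 (1.09) in M2, and Lyz2 in M3 (1.19), while Lor fell in M3 (-1.39). Their sums were 223.5 to 364.3, 134.1 to 391.6 and 24.7 to 99.5 on M arrays, against 167.3 to 197.5, 202.2 to 235.5 and 12.7 to 51.5 on E arrays. The part of any marker list in the results below was not tested, and fewer cells of a type cannot be told apart from less RNA per cell.

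Each of the 8 genes of the set was lower in the mesenchymal lines than in the epithelial line. Desmosomal genes outside the set, given further below, did not all fall. A gene counted as called at a limma p under 0.05, adjusted by Benjamini and Hochberg's method over the whole table, with a change of at least 2-fold, on the scale log2(signal + 32). The set was chosen with earlier results of these data known, so its counts are descriptive and no independent test. Averaged over the 4 M lines, 8 of 8 fell against E, beside a background of 14.5% of all genes tested that were called lower. Their median log2 change was -3.26, against -0.21 over all genes, and the 8 changes ran from -6.68 to -2.27. For Dsp, Dsg2 and Dsc2, which passed the filter only through the E arrays, the direction of the change was set by the filter. The share of E's signal that was left in the M lines differed widely from gene to gene.

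**Figure D1:**
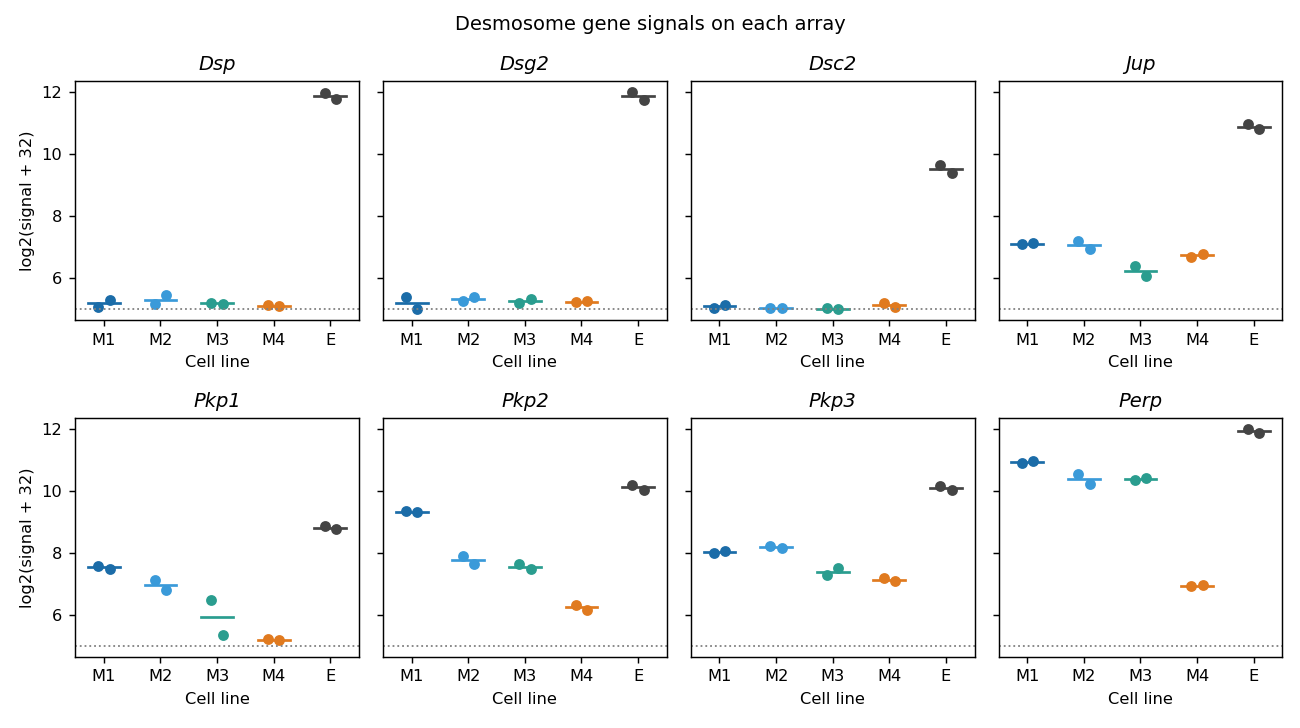
Signal of the representing probe set of each desmosome gene on every array, as log2(signal + 32), with M1, M2, M3, M4 and E from left to right, 1 point per array, a bar at each line's mean and a dotted line where the signal is 0. Every M array lies below both E arrays for each of the 8 genes, and Perp in M4, at linear signals of 89.3 and 92.3, stands far below the other M lines.

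Dsg2, the desmoglein found in simple epithelia, had signals of 10.1 and 0.5 in M1, 6.1 and 10.1 in M2, 4.5 and 8.2 in M3, and 5.5 and 6.5 in M4, against 4096.8 and 3425.7 in E. Dsc2, its desmocollin partner, had 0.7 and 3.5 in M1, 0.6 and 1.1 in M2, 0.7 and 0.3 in M3, and 4.9 and 2 in M4, against 779.1 and 640.4 in E. Both cadherins were near the bottom of the signal range on all 8 M arrays, and the M and E arrays did not overlap. The log2 change in the mean of the M lines was -6.62 ± 0.14 for Dsg2 (SE, limma adjusted p = 4.61e-38) and -4.45 ± 0.15 for Dsc2 (adjusted p = 6.75e-30). The 4 lines differed little among themselves, with changes from -6.67 to -6.56 for Dsg2 and from -4.51 to -4.38 for Dsc2.

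Dsp, the plakin that links the plaque to keratin filaments, behaved like the cadherins. Its signals were 2 and 7.6 in M1, 4.2 and 11.5 in M2, 4.5 and 4.3 in M3, and 3.2 and 2.2 in M4, against 4029.3 and 3486.6 in E. All 8 M arrays were low and none approached E, and the log2 change was -6.68 ± 0.14 (SE, limma adjusted p = 2.14e-38). By rank within an array, which does not depend on scaling, Dsp lay at percentiles 9.21 to 33 on M arrays, against 97.5 to 97.6 on E arrays. Dsg2 lay at 0.879 to 30.5 on M arrays and 97.4 to 97.7 on E arrays, and Dsc2 at 0.457 to 20.6 on M arrays and 86.4 to 87 on E arrays. All 3 genes were thus under the array's 40th percentile, the limit of the filter on low signals, on 8 of 8 M arrays. At such signals the size of a change depends on the pseudocount: with 8 in place of 32 it was -8.21 for Dsp, -8.06 for Dsg2 and -6.22 for Dsc2, and with the larger pseudocount, 4 times 32, it was -4.87, -4.85 and -2.69.

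Jup encodes plakoglobin, the armadillo protein shared by desmosomes and adherens junctions. Its signals were 104.4 and 108.6 in M1, 114.5 and 92 in M2, 53 and 35.4 in M3, and 71.1 and 78.1 in M4, against 1964 and 1778.2 in E. The M arrays were all low and did not overlap E, but unlike the cadherins Jup stood above the 40th percentile on all 8 of them, at percentiles 56.6 to 67.9, against 94.4 to 94.5 on E arrays. It fell by 4.10 ± 0.14 on the log2 scale in the mean of the M lines (SE, limma adjusted p = 1.59e-30). The mean signal left was 5.69% of E's for M1, 5.52% for M2, 2.36% for M3 and 3.99% for M4.

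The 3 plakophilins, which lie beside plakoglobin in the plaque and gather desmoplakin, fell less on this scale and differed more among the M lines. Pkp1, the plakophilin known best from stratified epithelia, had signals of 161 and 148.3 in M1, 107.1 and 79.5 in M2, 58 and 8.8 in M3, and 5.3 and 4.2 in M4, against 435.5 and 404.6 in E. All M arrays were below E, M4 was lowest, and the 2 arrays of M3 disagreed. The log2 change in the mean was -2.41 ± 0.17 (SE, limma adjusted p = 8.57e-18), and 36.8%, 22.2%, 7.95% and 1.13% of E's mean signal was left in M1, M2, M3 and M4.

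Pkp2, the plakophilin of simple epithelia and heart, had signals of 617.4 and 604.6 in M1, 207 and 168.7 in M2, 167.6 and 145.7 in M3, and 48.7 and 40 in M4, against 1149.8 and 1015.8 in E. M1 was the highest M line and M4 the lowest, and no M array reached E. The log2 change in the mean was -2.39 ± 0.13 (SE, limma adjusted p = 1.7e-21). In M1 alone it was -0.79 (adjusted p = 6.99e-05), under the 2-fold limit, and M1 kept 56.4% of E's mean signal, against 17.3% in M2, 14.5% in M3 and 4.1% in M4.

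Pkp3, the plakophilin present in most epithelia, had signals of 226 and 235.6 in M1, 269.4 and 250.8 in M2, 124.8 and 149.4 in M3, and 112.7 and 104.3 in M4, against 1113 and 1011 in E. M1 and M2 were above M3 and M4, and all were below E. The log2 change in the mean was -2.40 ± 0.13 (SE, limma adjusted p = 8.66e-22), with 21.7%, 24.5%, 12.9% and 10.2% of E's mean signal left in M1, M2, M3 and M4.

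Perp is a tetraspan protein needed for desmosomes in stratified epithelia and a known target of p53 and p63. Its signals were 1878 and 1951 in M1, 1473.1 and 1163.7 in M2, 1266 and 1339.4 in M3, and 89.3 and 92.3 in M4, against 4023.5 and 3719.2 in E. M1, M2 and M3 kept 49.5%, 34.1% and 33.6% of E's mean signal, while M4 kept 2.35%. The log2 change in the mean was -2.27 ± 0.11 (SE, limma adjusted p = 5.05e-23), and by line it was -1.003 for M1, -1.54 for M2, -1.55 for M3 and -4.99 for M4. The call in M1 lies at the 2-fold limit: it was lost without M1 replicate 1 (log2 change -0.98), without E replicate 1 (-0.95) and on 3 other scalings of the arrays (-0.73 to -0.96). On every M array Perp was at percentile 68.7 or above, against 97.6 to 97.7 on E arrays.

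Taken line by line, 7 of 8 genes fell in M1, beside 12.5% of all genes called lower there, the exception being Pkp2. All 8 fell in M2 (background 11.8%), in M3 (19.8%) and in M4 (20.1%). The median log2 change of the 8 was -2.92 for M1, -3.08 for M2, -3.70 for M3 and -4.27 for M4, against -0.11, -0.14, -0.25 and -0.35 over all genes. The 4 comparisons share the E arrays, through which alone Dsp, Dsg2 and Dsc2 passed the filter. Of the M1 calls, that of Pkp1 (log2 change -1.28) was lost after quantile normalization (-0.997) and with the larger pseudocount (-0.96). The larger pseudocount also ended that of Perp (-0.97), so each of these alternatives left 5 of 8 called in M1. A fit to 5 line means, in which the M lines and not the arrays set the spread, called 5 of the 8: Dsp, Dsg2, Dsc2, Jup and Pkp3. It gave limma adjusted p = 0.126 for Pkp1, 0.198 for Pkp2 and 0.374 for Perp, the 3 genes with the widest range among M lines. With a single epithelial line, no test here covers how epithelial lines vary.

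**Figure D2:**
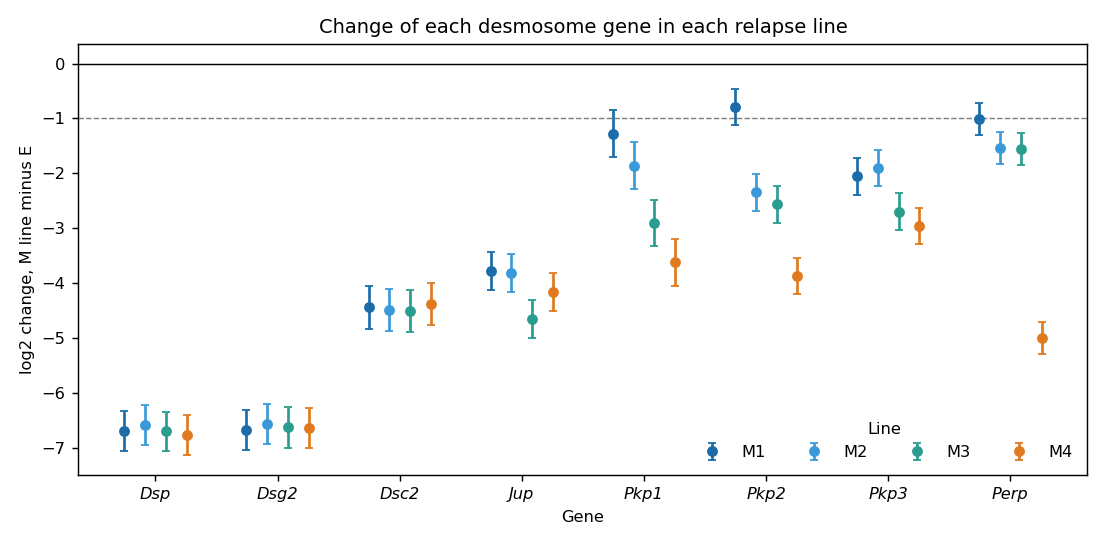
Log2 change of each desmosome gene in M1, M2, M3 and M4 against E, on the scale log2(signal + 32), with 95% confidence intervals from limma and a dashed line at the 2-fold limit. The points of Dsp, Dsg2 and Dsc2 lie at nearly 1 height across the lines, while those of Pkp1, Pkp2 and Perp spread, with M1 nearest 0 and M4 farthest from it. The M signals of Dsp, Dsg2 and Dsc2 were far under the 32 that is added, so differences among lines could not be resolved there.

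Differences among the 4 M lines do not involve E. By limma's moderated F test, 4 of 8 genes differed (adjusted p under 0.05 and at least 2-fold between the highest and lowest line), beside 22.4% of all genes. They were Perp (range 3.99 on the log2 scale, adjusted p = 1.94e-28), Pkp2 (3.08, adjusted p = 1.09e-19), Pkp1 (2.34, adjusted p = 2.85e-13) and Pkp3 (1.06, adjusted p = 2.03e-07). M4 was the lowest line for all 4. M1 was the highest for Perp, Pkp2 and Pkp1, and M2 for Pkp3. Jup differed by 0.87 (limma adjusted p = 3.96e-05), short of 2-fold. For Dsp, Dsg2 and Dsc2 the ranges were 0.19, 0.11 and 0.12 (limma adjusted p = 0.808, 0.956 and 0.939), at signals where a difference could not be resolved.

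The pairs of lines give the order of each gene. For Perp, M1, M2 and M3 exceeded M4 by 3.99, 3.45 and 3.44 on the log2 scale (limma adjusted p = 1.84e-27, 1.05e-24 and 5.39e-25). M2 minus M3 was 0.01, with a 95% interval from -0.28 to 0.30, and M1 exceeded M2 by 0.54, short of 2-fold. For Pkp2, M1 exceeded M2 by 1.55 (limma adjusted p = 1.91e-10) and M3 exceeded M4 by 1.31 (adjusted p = 7.6e-09), while M2 minus M3 was 0.22 with an interval from -0.12 to 0.55. The order of Pkp2 was therefore M1, then M2 and M3 together, then M4, and that of Perp was M1, M2 and M3 within 2-fold of one another, then M4. The last step of Pkp2 was under 2-fold with the mean of its probe sets (M2 minus M4 0.88, M3 minus M4 0.75) and with the larger pseudocount (0.87 and 0.72).

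For Pkp1, M1 exceeded M3 by 1.62 and M4 by 2.34 (limma adjusted p = 9.99e-09 and 5.48e-13). Pkp1 was under the 40th percentile on both M4 arrays and on M3 replicate 2, so the sizes depend on the pseudocount: M1 minus M4 ran from 1.09 to 3.67 over the alternatives, and M2 minus M4 lost its call with the larger pseudocount (0.73) and with a floor of 64 (0.53). M2 exceeded M4 by 1.76 and M3 by 1.04, but the last value rests on 1 array. Without M3 replicate 2, M2 minus M3 was 0.47, short of 2-fold, and M1 minus M3 was 1.05, while without M3 replicate 1 M2 minus M3 was 1.61. M2 minus M3 was also under 2-fold after quantile normalization (0.87), after median scaling (0.92) and without M2 replicate 1 (0.88). With the larger pseudocount it was 0.47, and with the floor of 64 it was 0.53. M1 minus M3 was under 2-fold with the larger pseudocount (0.825). For Pkp3, M2 minus M4 was the 1 pair called, at 1.06 (limma adjusted p = 1.15e-06). It was under 2-fold after quantile normalization (0.72), median scaling (0.86) and scaling to hybridization controls (0.85).

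Counted over pairs, each member called was higher in the line named first. The counts were 1 of 8 for M1 against M2 (background 4.54% of genes called in either direction), 2 for M1 against M3 (11%) and 3 for M1 against M4 (8.96%). They were 1 for M2 against M3 (7.29%), 4 for M2 against M4 (6.32%) and 2 for M3 against M4 (10.3%).

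Most members have several probe sets, and these were fitted separately. Of 19 kept probe sets 18 fell in the mean of the M lines, beside 12% of all probe sets kept, and 16 fell in each of the 4 M lines. In 18 of 19 every M array lay below both E arrays. The 6 kept Dsg2 probe sets had log2 changes of -6.62, -6.08, -4.62, -3.08, -2.83 and -2.20, and the 3 of Dsp had -6.68, -5.77 and -2.21. Those with small changes were dim in E too, such as the Dsp probe set 1427610_at with 157 and 114.3 in E. All Dsp and Dsc2 probe sets passed the filter only with the E arrays. So did the Dsg2 probe sets with changes of -6.62, -6.08, -4.62 and -3.08. For all of these a fall was set by the filter, and their counts are no separate agreement between probe sets.

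The other probe sets of the plakophilins differed in whether they kept the order of the lines. The second Pkp2 probe set, 1429183_at, had log2 changes of -0.64 for M1, -2.26 for M2, -2.21 for M3 and -3.40 for M4, near those of the representing one. A dim Pkp2 probe set, 1460511_at, had signals of 7.4 to 50.3 on M arrays and 43.2 to 57.4 on E arrays, which overlapped, with M1 highest and M3 lowest by mean among the M lines, and a change of -0.67 (limma adjusted p = 0.000982) that was not called. The fourth, 1420259_at, did not pass the filter, with 1.1 to 16.2 on M arrays and 3.2 to 16.4 on E arrays. The second Pkp3 probe set, 1418832_at, had changes of -2.19 for M1, -1.19 for M2, -2.29 for M3 and -2.47 for M4, so M1 stood with M3 and M4 there.

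**Figure D3:**
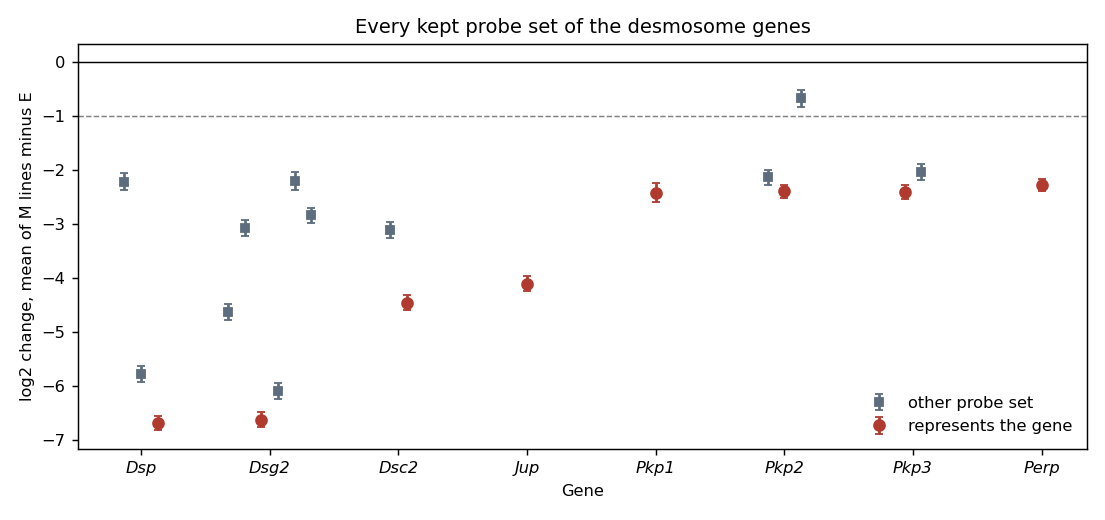
Log2 change of each kept probe set of the desmosome genes, averaged over the 4 M lines, against E on the scale log2(signal + 32). Error bars are the SE from limma, circles are the probe sets that represent a gene, squares are the others, and the dashed line is the 2-fold limit. Of the 19 probe sets 18 fell in the mean of the M lines, and the dim Pkp2 probe set at -0.67 did not. Those of Dsp and Dsc2 and most of Dsg2 passed the filter only with the E arrays.

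The rest of the junction was read from lists of related genes, which hold 60 symbols in 6 lists. Averaged over the M lines, 17 of the 47 tested fell, beside 14.5% of all genes, and 7 rose, beside 7.34%. Among other desmosomal genes 5 of 11 were tested: Pnn (pinin, log2 change -1.65) and Kazn (kazrin, -1.51) fell, and Cdsn, corneodesmosin of the skin's outer layer, rose by 1.77. Cdsn had signals of 197.9 and 181.1 in M1, 85.1 and 86 in M2, 1842.3 and 1837.6 in M3, and 43.3 and 47.7 in M4, against 52.8 and 30.7 in E. Line by line it was called in M3 (4.68) and in M1 (1.60), and without M3 the mean change was 0.79 and not called. Dsc3 (-0.22) and Pkp4 (-0.51) were not called, Dsg1a, Dsg1b and Dsc1 did not pass the filter, and no probe set with the single symbol Dsg1c, Dsg3 or Dsg4 was found. The list's median was -0.51.

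Keratins are the filaments that desmosomes anchor. Of 10 in the list 6 were tested and 3 fell, with a median of -0.91. Krt7 (-7.28) and Krt18 (-7.33) fell in all 4 M lines, whereas Krt8, the usual partner of Krt18 in simple epithelia, fell in M1 only. Krt8 averaged 57.05 for M1, 7947 for M2, 5529 for M3 and 4538 for M4, against 7959 in E, and its log2 change of -1.96 in the mean became -0.44, not called, without line M1. Krt18 averaged 548.5 for M1, 14.15 for M2, 6.8 for M3 and 5 for M4, against 12610 in E. The line with little Krt8 was thus the one with the most Krt18 among the M lines.

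All 9 plakin and hemidesmosome genes were tested, with a median of -0.61. Ppl (periplakin, -1.91), Evpl (envoplakin, -1.51) and Itga6 (integrin alpha 6, -1.01) fell and Plec (plectin, 1.28) rose. The Itga6 call lay at the 2-fold limit. It was lost on the other scalings (-0.65 to -0.70) and without E replicate 1 (-0.90), M2 replicate 2 (-0.96) or M4 replicate 1 (-0.996). Plec was under 2-fold without line M1 (0.94) and with the mean of its probe sets (0.76). In the adherens junction list, with 7 of 8 tested and a median of -0.48, Cdh1 (E-cadherin, -5.86) and Ctnnd1 (p120 catenin, -1.39) fell and Cdh2 (N-cadherin, 4.53) rose. The Ctnnd1 change was under 2-fold with the mean of its probe sets (-0.96) and after quantile normalization (-0.99). Ctnnb1 (beta-catenin, -0.48) and Ctnna1 (alpha-catenin, -0.98) were not called.

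Transcription factors tied to epithelial junction genes moved in both directions, and 12 of 14 were tested, with a median of -0.61. The 6 that fell include Grhl2 (-4.07), Ovol2 (-2.82), Grhl1 (-1.91) and Klf5 (-1.48), which are known to favour epithelial genes. The other 2, Ovol1 and Grhl3, lost their calls with the larger pseudocount (-0.54 and -0.37), as did Grhl1 (-0.93). The 4 that rose were Snai2 (4.93), Zeb1 (4.45), Zeb2 (2.27) and Snai1 (1.53), known repressors of such genes. Snai1 was not called in M3 (0.35), nor in the mean with the larger pseudocount (0.73) or a floor of 64 (0.72). Trp63, a regulator of Perp in skin, had 1.3 to 21 on M arrays and 6.4 to 21.3 on E arrays, with a change of -0.15 that was not called. Among 8 enzymes that act on desmosomal proteins, with a median of -0.68, Ripk4, a kinase of Pkp1, fell by 5.70 and the other 7 were not called.

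**Figure D4:**
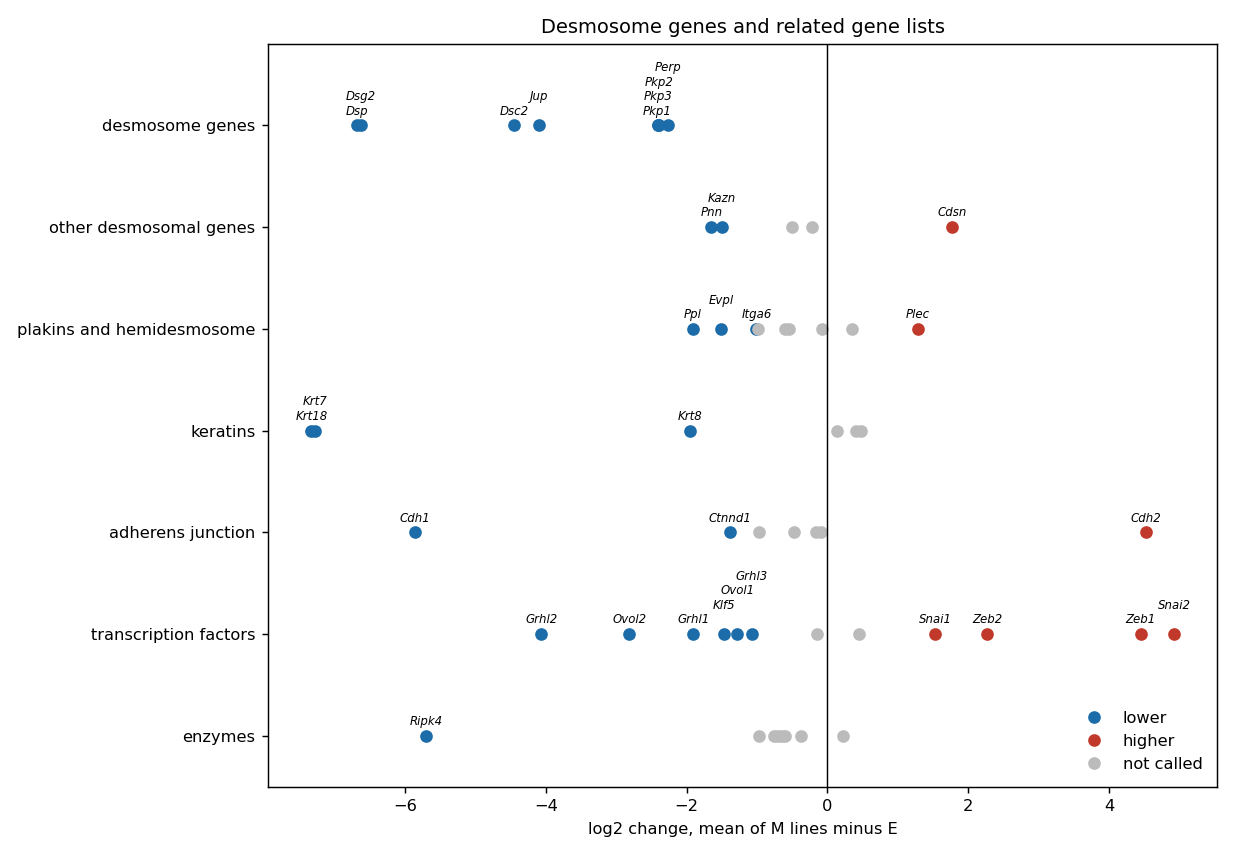
Log2 change, averaged over the 4 M lines, against E for the desmosome genes and the 6 related lists, on the scale log2(signal + 32), with 1 point per tested gene, blue where called lower, red where called higher and grey where not called. All 8 desmosome genes lie below -2, as do Krt18, Krt7, Cdh1, Ripk4, Grhl2 and Ovol2 of the related lists. Those lists also hold genes near 0, and Cdh2, Snai2 and Zeb1 lie above 4.

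Genes with the most similar pattern were sought over the genes tested, leaving out the members themselves and symbols that are clone or locus names. Over the 10 arrays, which fall into an M and an E cluster, the mean of the 8 members was most like Gata3 (Pearson r = 0.997), Ppm1f (0.997), Fzd3 (0.996), Pls1 (0.995) and Cmas (0.995). Gata3, a transcription factor of luminal mammary cells, averaged 116.3 for M1, 85.35 for M2, 76.65 for M3 and 37.6 for M4, against 1115 in E. Over the 8 M arrays, which are 4 lines of 2 arrays, Perp was most like Ddx28 (0.998), Nhsl1 (0.997) and Pkia (0.997). Pkp2 was most like Afap1l2 (0.996), Lhpp (0.993) and Gnb4 (0.993), Pkp1 like Dhdds (0.985), Ppcdc (0.975) and Csnk2a2 (0.975), and Pkp3 like Dock8 (0.992), Id4 (0.986) and Sptan1 (0.985). Pkia, for instance, averaged 550.7 for M1, 370 for M2, 403.3 for M3 and 7.15 for M4, against 246.2 in E, so it was low in M4 as Perp was but not highest in E. With lines this few, such values describe these arrays only.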

How the data were processed

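Gene expression was measured on 10 arrays of total RNA, 2 for each of the lines M1, M2, M3, M4 and E. The deposited values are probe set signal intensities on a linear scale. GCOS 1.3 is named in the submitters' processing notes, and how signals were computed, scaled or corrected for background is not given in the sources used. Groups came from the sample labels. Probe sets were named through the platform's annotation, and those with a single symbol (34945) were used.

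A pseudocount of 32 was added before log2. Probe sets above the 40th percentile of at least 2 arrays were kept (32978), and the kept one with the highest mean stood for its gene. The deposited scaling was kept. limma 3.58.1 in R 4.3.3 fitted 1 mean per line (lmFit, eBayes with a trend; 5 residual and 41.4 prior degrees of freedom), with Benjamini-Hochberg adjustment over 14840 genes. E was subtracted from the M lines' mean and from each M line, and the M lines were compared in pairs and by a moderated F test. The number of arrays limits the precision. The fit was tested on data simulated from its own estimate of the spread, with no differences among M lines. That test does not cover how lines vary or how arrays are scaled.

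The members and lists were chosen with earlier results of these data known. Besides all members, up to 4 called genes per related list and direction were named, and the genes most correlated with the members. Alternatives were 3 other scalings (quantile, median, 9 hybridization controls), a pseudocount of 8 and one 4 times as large as 32, a floor of 64, no filter, the mean of a gene's probe sets, no trend, a replicate block, each array or M line left out, and 5 line means.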

Additional observations from a re-analysis of the deposited data

Results flagged for a closer look

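Among the 4 M lines, which are relapsed tumour lines set against the same line E, the change of 4 desmosome genes differed by limma's moderated F test with a range of at least 2-fold. Perp had the widest range, 3.99 on the log2 scale (adjusted p = 1.94e-28), with mean signals of 1914 for M1, 1318 for M2, 1303 for M3 and 90.8 for M4, against 3871 in E. For Pkp2 the range was 3.08 (limma adjusted p = 1.09e-19), with 611 for M1, 187.8 for M2, 156.6 for M3 and 44.35 for M4, against 1083 in E. For Pkp1 it was 2.34 (limma adjusted p = 2.85e-13), with 154.6 for M1, 93.3 for M2, 33.4 for M3 and 4.75 for M4, against 420 in E. Both M4 arrays were under the 40th percentile there, and the Pkp1 range ran from 1.09 to 3.67 over the alternatives. For Pkp3 it was 1.06 (limma adjusted p = 2.03e-07), with 230.8 for M1, 260.1 for M2, 137.1 for M3 and 108.5 for M4, against 1062 in E. The Pkp3 range was under 2-fold on 3 other scalings, at 0.72, 0.86 and 0.85, and with the larger pseudocount, at 0.71. The trimmed mean signal of the arrays was lowest in M4, at 180.7 and 190.2, against 299 and 264 in E; its part in these differences was not tested.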

How the results depend on the processing

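Of 2857 recomputed single-gene values, 2770 kept their side of the threshold, 70 lost a call and 17 gained one, and 0 called values reversed. The count of 8 desmosome genes lower in the mean of the M lines held under each alternative but the fit to 5 line means, which gave 5. Leaving out 1 array gave 8 to 8 in the mean, 6 to 7 in M1 (5 after quantile normalization or with the larger pseudocount), and 4 to 5 genes that differed among M lines. Scaling and the pseudocount moved the counts over all genes. The deposited scaling called 2148 lower and 1089 higher (66.4% lower), quantile normalization 1310 and 1430 (47.8%), median scaling 1369 and 1384 (49.7%), and hybridization controls 1454 and 1332 (52.2%). The median change of all genes was -0.21 as deposited and 0.04, 0.03 and 0.00 on those 3 scalings. A pseudocount 4 times as large gave 1398 lower and 683 higher over all genes, and 11 related genes lower, against 17. The fit to 5 line means gave 1083 lower and 489 higher over all genes, and 4 related genes higher, against 7. Leaving out 1 array gave 1914 to 2503 lower and 1027 to 1167 higher over all genes, and 16 to 20 related genes lower.

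Replicate numbers did not pair the arrays: deviations of same-numbered arrays correlated at -0.07 to 0.06 over 10 pairs of lines, and 0 exceeded 0.1. With the replicate block, the counts stayed at 8 desmosome genes, 2148 genes lower and 1089 higher. Signals under the 40th percentile, 14.1 to 21.3, limit Dsp, Dsg2 and Dsc2 in the M lines. Pseudocounts or floors ended the calls of Evpl, Kazn, Grhl1, Grhl3, Ovol1, Itga6 and Snai1; the cause was not tested. Pnn, Ppl, Ctnnd1, Krt8, Cdsn, Itga6, Plec and Snai1 were not called over 5 line means.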

Other observations

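Itgb4 and Cdsn, singled out after their values were seen, also differed among the M lines. Itgb4, the beta subunit of the hemidesmosome integrin, had signals of 372.9 and 367.6 in M1, 1235.1 and 993.9 in M2, 1544.4 and 1700.2 in M3, and 47.2 and 65.6 in M4, against 905.5 and 1057.9 in E. It was low in M4, intermediate in M1 and at or above the level of E in M2 and M3. Its range among the M lines was 4.23 on the log2 scale (limma adjusted p = 4.38e-27). In the mean of the M lines it changed by -0.99, just under the 2-fold limit, and was called in 8 alternatives, among them those without E replicate 1 (-1.10), without M4 replicate 2 (-1.03), without M2 replicate 1 (-1.03), without M3 replicate 2 (-1.01), and without line M2 (-1.38) or M3 (-1.56). Cdsn differed by 4.60 among the M lines (limma adjusted p = 2.15e-27) and was highest in M3.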
